A study of Homo sapiens with 6 samples.

Results

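The enzymes, binding proteins and nuclear receptors that make, carry, read and destroy retinoic acid were examined in an oral squamous cell carcinoma line kept in low oxygen or in air. The set holds 9 named genes: STRA6, DHRS3, ALDH1A3, CRABP2, RARA, RARB, RARG, CYP26A1 and CYP26B1. They were chosen by name with their response to hypoxia already known, so their differences between the conditions are given as a description, with no p-value, and the calls made for them in the fit over all genes are only counted once beside the share for all genes. Of the 9, 8 had a row among the 21776 genes of the deposited count table and all 8 passed the filter on low counts, which left 14255 genes. RARB had no row, so its expression was not analysed here, and only its promoter windows were. Every gene with a row had reads in some library. Whether RARB lacks a row for want of reads was not tested.

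The study sequenced mRNA from 6 libraries, 3 per condition. The labels name the cells as SCC25, a human tongue squamous cell carcinoma line given as wild type. A figure legend of the study names a different line, SCC9, and the line is called here as the labels have it. The hypoxia group was held for 12 h in a tri-gas incubator at 1% O2 and 5% CO2 with the balance nitrogen, and the normoxia group for 12 h in 5% CO2 with air. Both groups shared the same line and the same serum-containing medium, and no drug, knockdown or added retinoid is named for either. As 1 established line, the cells represent no other tumor and no stroma, and no label says whether the libraries came from separate cultures, so the spread between them may be technical. The library totals were 30186813, 36076088 and 32272716 counts in hypoxia and 37278703, 29637189 and 29981208 counts in normoxia, numbered as replicates 1 to 3 in that order.

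Retinol, or vitamin A, enters cells partly through the membrane receptor STRA6 and is oxidized reversibly to retinal and then irreversibly to retinoic acid by the retinaldehyde dehydrogenases. DHRS3 works against this flow by reducing retinal back to retinol, and the CYP26 cytochromes oxidize retinoic acid to products that are cleared. Retinoic acid binds the receptors RARA, RARB and RARG, which sit on DNA with an RXR partner, and in squamous epithelium it is known for holding back keratinization.

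The retinoic acid receptors bind pairs of half-sites in direct repeat, and the classical spacing of 5 bases is called DR5. The sites shown first are those of CYP26A1 and RARB, because CYP26A1 had the largest difference of the set and RARB, the receptor gene that is the classical carrier of a DR5 element, had no row. Each is printed 5′ to 3′ on the strand of the match, with the half-sites in capitals, from the RefSeq promoter windows on GRCh38.p14.

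CYP26A1, chr10:93073796-93073825, minus strand: acaattAGTTCAcccaaAGTTCAtctttaa

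RARB, chr3:25428204-25428233, plus strand: gggtagGGTTCAccgaaAGTTCActcgcat

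The CYP26A1 match lay 90 to 74 bases before the second annotated start of the gene, inside the first noncoding exon that GENCODE v29 gives for another CYP26A1 transcript, and the RARB match lay 53 to 37 bases before a start of that gene. The search covered both strands for any pair of half-sites in the same orientation with NNNNN between them, where a half-site was AGGTCA or its variant AGTTCA, or else GGGTCA or its variant GGTTCA. Over all 35116 RefSeq promoter windows, each from 250 bases before a transcript start to 50 after it, 31 windows held such a pair (0.0883%). By gene, 29 of 27305 genes had one (0.106%), and CYP26A1 and RARB were 2 of them. The other 7 genes of the set had no DR5 letters in their windows, and none of the 9 had the pair with a spacing of 2 bases, which 0.0399% of all windows held.

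The core letters of the hypoxia response element, ACGTG or GCGTG on either strand, are far more common and were present in 48.4% of all windows. Among the 21 windows of the 9 genes, 7 held the core, and these belonged to 6 of the 9 genes, beside 52.4% of all 27305 genes: CYP26A1, RARA, RARB, ALDH1A3, CRABP2 and DHRS3. The windows of CYP26B1, RARG and STRA6 did not. The 250 bases before the first CYP26A1 start, at chr10:93073225-93073474 on the plus strand, are shown because they held 2 copies of the palindrome CACGTG, in capitals, in which the core reads on both strands.

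CYP26A1, first start: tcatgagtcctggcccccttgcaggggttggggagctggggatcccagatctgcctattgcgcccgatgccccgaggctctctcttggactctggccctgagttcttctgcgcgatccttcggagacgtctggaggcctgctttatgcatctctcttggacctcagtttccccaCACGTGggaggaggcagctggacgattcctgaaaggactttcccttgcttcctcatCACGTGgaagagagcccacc

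**Figure D1:**
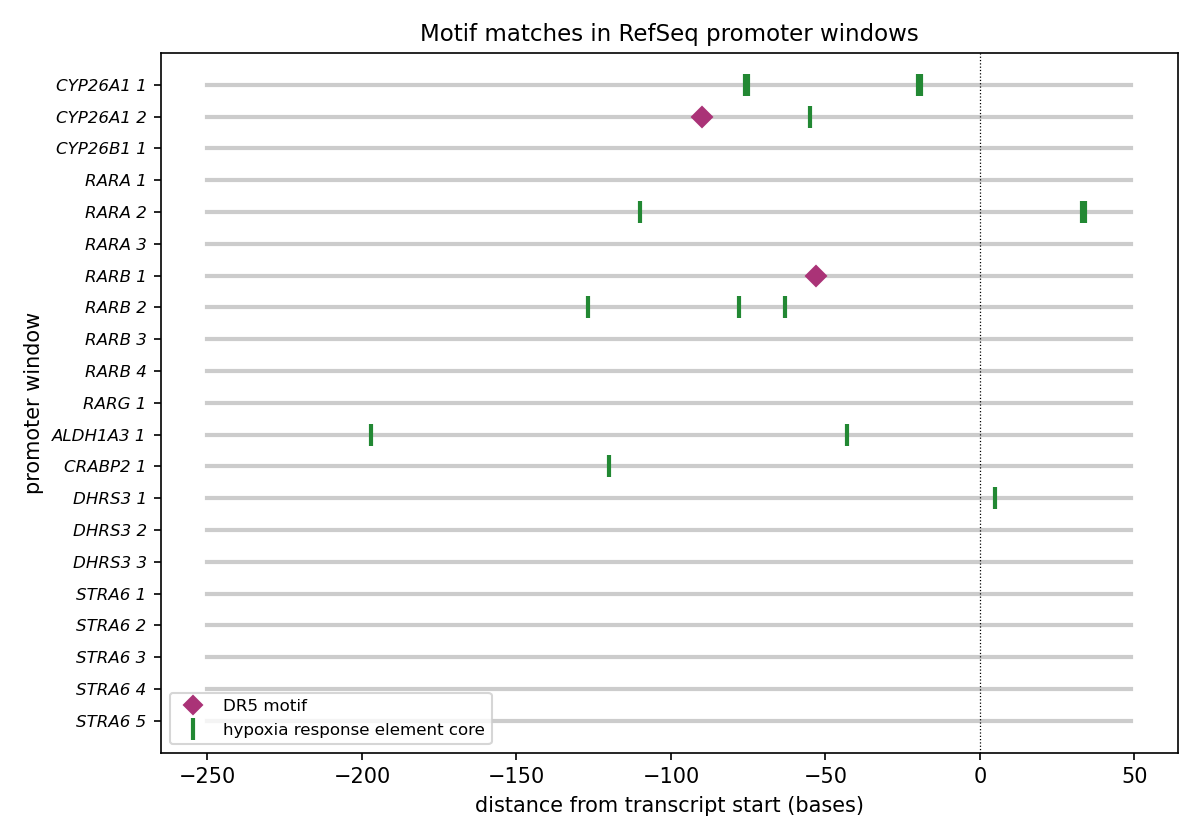
Matches to the DR5 repeat (diamonds) and to the core of the hypoxia response element (bars) in the 21 RefSeq promoter windows of the 9 genes, plotted by the distance of the first base of the match from the transcript start in bases. DR5 matches stand only in the second CYP26A1 window and the first RARB window, and 14 of the 21 windows hold no core.

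The letters alone do not show binding, and no binding was measured in these libraries.

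Uptake and the first, reversible step are covered by STRA6 and DHRS3. STRA6 (chr15:74179466-74212267, minus strand, GENCODE v29 on GRCh38) encodes the membrane receptor that takes retinol from its plasma carrier. It had 3048, 3872 and 3204 counts in the hypoxia libraries and 214, 128 and 405 in the normoxia libraries, in replicate order. Every hypoxia library stood far above every normoxia library, and normoxia replicate 3 stood above the other normoxia libraries. In CPM (counts scaled to the library total with TMM factors), the means were 101 ± 2.83 (SD, n = 3) in hypoxia and 7.97 ± 4.99 in normoxia, a 12.7-fold difference. The log2-fold change from the edgeR model was 3.67 with a standard error (SE) of 0.22, and leaving out normoxia replicate 3 raised it to 4.27.

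DHRS3 (chr1:12567910-12617731, minus strand) encodes the reductase that returns retinal to retinol. The hypoxia libraries had 5837, 7543 and 6668 counts and the normoxia libraries 1383, 1052 and 1649. The groups did not overlap, and normoxia replicate 3 was again the highest of its group. Mean CPM was 199.8 ± 7.62 in hypoxia and 43.2 ± 10.8 in normoxia, and the log2-fold change was 2.21 (SE 0.11).

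ALDH1A3 (chr15:100877714-100916626, plus strand) encodes the retinaldehyde dehydrogenase that makes retinoic acid from retinal, and it moved the other way. It had 42148, 50684 and 45733 counts in hypoxia and 118031, 92720 and 90945 in normoxia. No hypoxia library came near the lowest normoxia library, although ALDH1A3 remained the most abundant gene of the set in every library. Mean CPM was 1384 ± 23.6 in hypoxia and 3162 ± 83.5 in normoxia, and the log2-fold change was -1.19 (SE 0.050), or 0.438 times the normoxia mean.

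CRABP2 (chr1:156699606-156705816, minus strand) encodes the cellular binding protein that carries retinoic acid to the receptors. Its counts were low, with 280, 343 and 306 in hypoxia and 92, 101 and 89 in normoxia. The groups were apart in every library. Mean CPM was 9.27 ± 0.138 in hypoxia and 3.00 ± 0.529 in normoxia, and the log2-fold change was 1.64 (SE 0.15).

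The receptor genes differed by unequal amounts. RARA (chr17:40309192-40357643, plus strand), which encodes retinoic acid receptor alpha, had 3025, 4262 and 3413 counts in hypoxia and 1000, 810 and 790 in normoxia. Its normoxia libraries lay close together, and all hypoxia libraries were higher. Mean CPM was 106 ± 7.82 against 27.3 ± 0.881, with a log2-fold change of 1.96 (SE 0.066). RARG (chr12:53210567-53232980, minus strand), which encodes receptor gamma, the main form of epidermis, had 1514, 1745 and 1600 counts in hypoxia and 1105, 792 and 1012 in normoxia. The hypoxia and normoxia libraries of RARG lay closer together than those of RARA but did not overlap. Mean CPM was 48.6 ± 1.47 against 30.5 ± 3.34, and the log2-fold change was 0.67 (SE 0.076).

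The balance between these receptors therefore differed. Of the summed FPKM (fragments scaled to gene length and library total, a level per length) of RARA and RARG, RARA held 53.1%, 58.1% and 54.8% in the hypoxia libraries and 33.9%, 36.7% and 30.7% in the normoxia libraries. On this scale RARG gave more of the sum in every normoxia library and RARA in every hypoxia library. The means for RARA were 55.3% ± 2.52 in hypoxia and 33.8% ± 3.01 in normoxia (SD, n = 3). By counts, RARA held 66.6%, 71.0% and 68.1% in hypoxia and 47.5%, 50.6% and 43.8% in normoxia. RARA was thus higher in every hypoxia library on both scales, but which gene led in normoxia replicate 2 depended on the gene lengths used.

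CYP26A1 (chr10:93073475-93077890, plus strand) encodes the retinoic acid hydroxylase that is itself a classical target of the retinoic acid receptors. It had 1098, 1696 and 1506 counts in hypoxia and 12, 1 and 4 in normoxia. Normoxia replicate 2 was under 3 counts, the limit that a count of 0 allows, so the normoxia level is near the limit of counting. Mean CPM was 42.7 ± 5.81 in hypoxia and 0.164 ± 0.146 in normoxia, a 259.8-fold difference. The log2-fold change of 7.88 (SE 0.23) was the fifth largest increase among all genes tested. It changed with the libraries used: the value was 8.88 with normoxia replicate 1 left out, and 7.45 with normoxia replicate 2 left out.

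CYP26B1 (chr2:72129238-72148038, minus strand), the paralog with the same reaction, was low in both conditions. It had 21, 29 and 18 counts in hypoxia and 15, 15 and 13 in normoxia. The CPM values did not overlap, with means of 0.674 ± 0.113 and 0.456 ± 0.0622, but the log2-fold change of 0.57 had an SE of 0.39. The FPKM ratio of CYP26A1 to CYP26B1 was 101, 113 and 161 in the hypoxia libraries and 1.54, 0.128 and 0.593 in the normoxia libraries, so that CYP26A1 was the main CYP26 transcript measured in all hypoxia libraries and in 1 of 3 normoxia libraries.

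**Figure D2:**
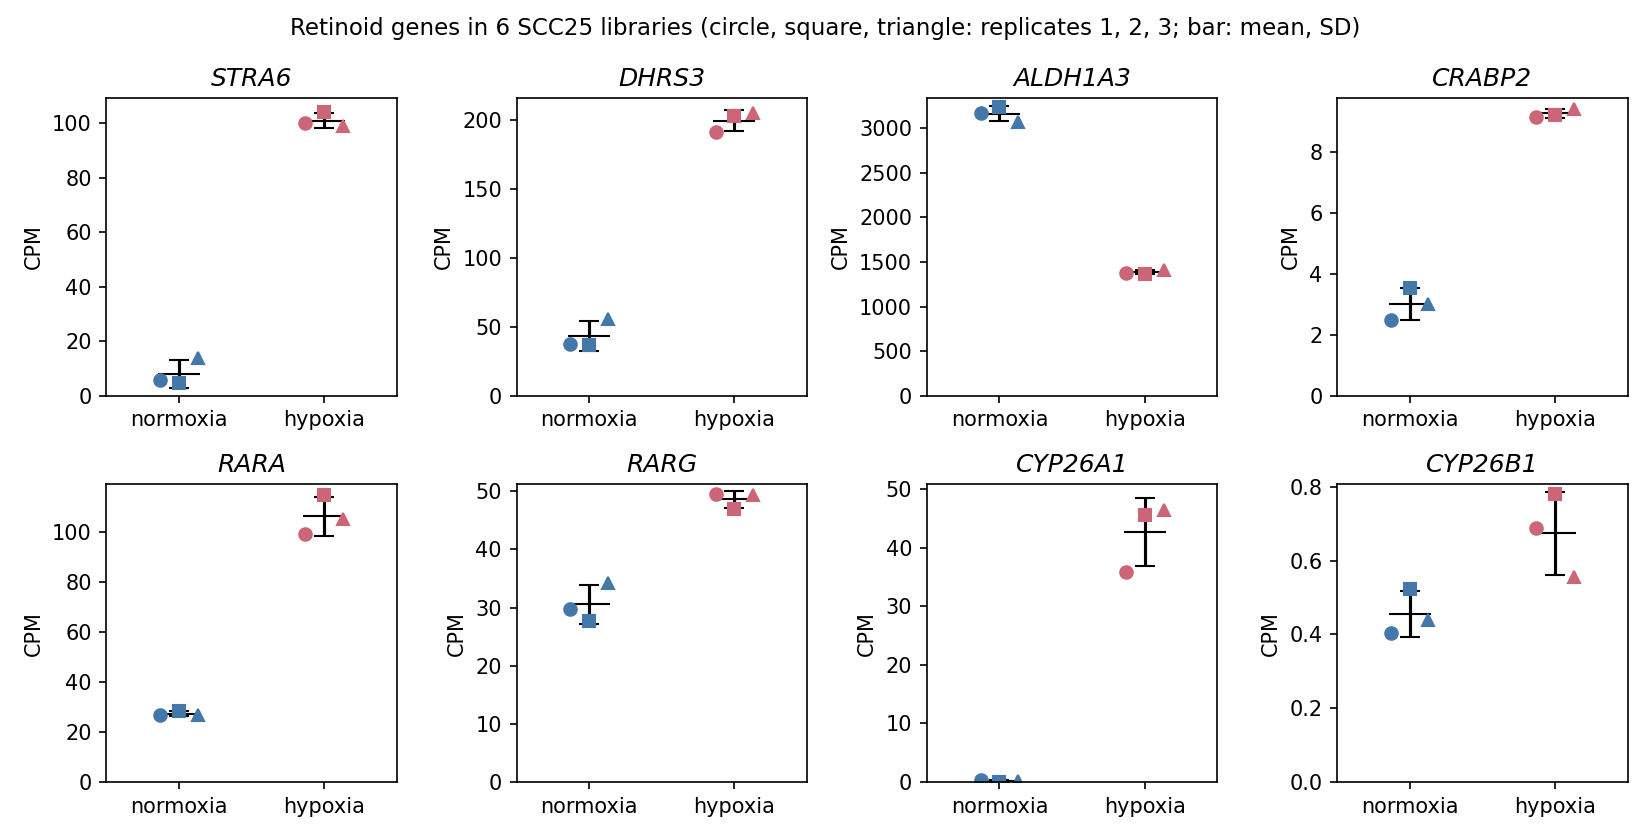
CPM of the 8 genes in each of the 6 libraries, by condition, with the group mean and SD as black bars and the replicate number as the symbol. Each axis starts at 0, and ALDH1A3 alone has its hypoxia libraries below its normoxia libraries.

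With edgeR's quasi-likelihood test and a Benjamini-Hochberg adjusted p-value under 0.05, 6 of the 8 genes were called higher in hypoxia, against 39.2% of all genes tested, and 1 was called lower, against 38.5%. All 8 had groups that did not overlap in CPM, which held for 80.5% of all genes. A log2-fold change above 1 among called genes was found for 5 (19.9% of all genes), and one below -1 for ALDH1A3 (10.5%). Because the genes were picked with this contrast known, nothing is read from these counts. The median log2-fold change of the 8 was 1.80, beside 0.023 over all genes tested.

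Levels can be compared between genes only per length, and on the FPKM scale ALDH1A3 stood apart at 405 ± 3.02 in hypoxia and 896 ± 19.7 in normoxia (mean ± SD, n = 3). In hypoxia it was followed by DHRS3 at 69.1 ± 2.88. STRA6 at 18.0 ± 0.743, RARA at 17.5 ± 1.49 and CYP26A1 at 17.5 ± 2.44 came next, and neighbours in this trio overlapped between libraries. RARG at 14.1 ± 0.261 and CRABP2 at 8.97 ± 0.121 stood lower, with CYP26B1 last at 0.144 ± 0.0259. In normoxia the order was different. DHRS3 at 14.5 ± 3.68 again came second, then RARG at 8.60 ± 1.01, RARA at 4.36 ± 0.0796, CRABP2 at 2.81 ± 0.448 and STRA6 at 1.38 ± 0.866, the last pair overlapping. CYP26B1 at 0.0938 ± 0.0112 and CYP26A1 at 0.0658 ± 0.0591 overlapped at the bottom. CYP26A1 thus moved from the foot of the order to the level of the receptors.

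**Figure D3:**
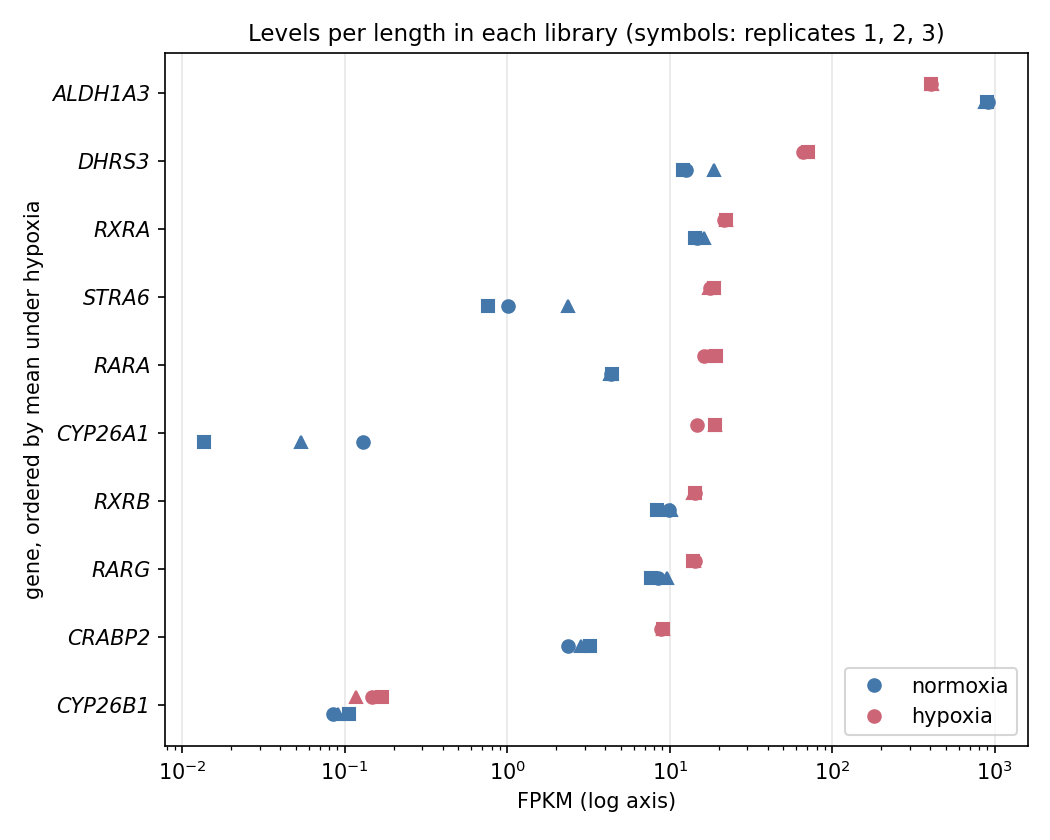
FPKM of the 8 genes and of the receptor partners RXRA and RXRB in each library, on a log axis, with genes ordered by their mean in hypoxia. CYP26A1 spans the widest distance between the conditions, and ALDH1A3 is at the top in both.

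The opposed differences of the enzyme that makes retinoic acid and the one that returns its precursor to retinol were compared within libraries. The FPKM ratio of ALDH1A3 to DHRS3 was 6.12, 5.69 and 5.81 in hypoxia and 72.3, 74.7 and 46.7 in normoxia. It was lower in every hypoxia library, with means of 5.87 ± 0.219 and 64.6 ± 15.5, and normoxia replicate 3 was the lowest of its group. The ratio describes transcripts and not enzyme activity or retinoic acid, which were not measured here. ALDH1A3 held from 99.96% to 99.99% of the summed FPKM of ALDH1A1, ALDH1A2 and ALDH1A3 in all 6 libraries.

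The replicates of the normoxia group were spread more widely than those of the hypoxia group for several of these genes. In log2 CPM relative to the group mean, STRA6 stood at -0.29, -0.65 and 0.95 in normoxia replicates 1, 2 and 3. EGLN3, a HIF prolyl hydroxylase and classical HIF target, stood at -0.075, -0.71 and 0.79, and CA9, carbonic anhydrase 9, at -0.28, -0.52 and 0.79. Normoxia replicate 3 was the highest of its group for STRA6, DHRS3 and RARG, and for 13 of 15 listed hypoxia response genes. That library was also the highest for 37.2% of all genes tested and for 60.7% of the genes called higher in hypoxia with a log2-fold change above 1. CYP26A1 followed another order, with normoxia replicate 1 highest at 0.99. Without normoxia replicate 3 the log2-fold changes of DHRS3 and STRA6 were 2.42 and 4.27, each the highest of the values with 1 library left out.

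**Figure D4:**
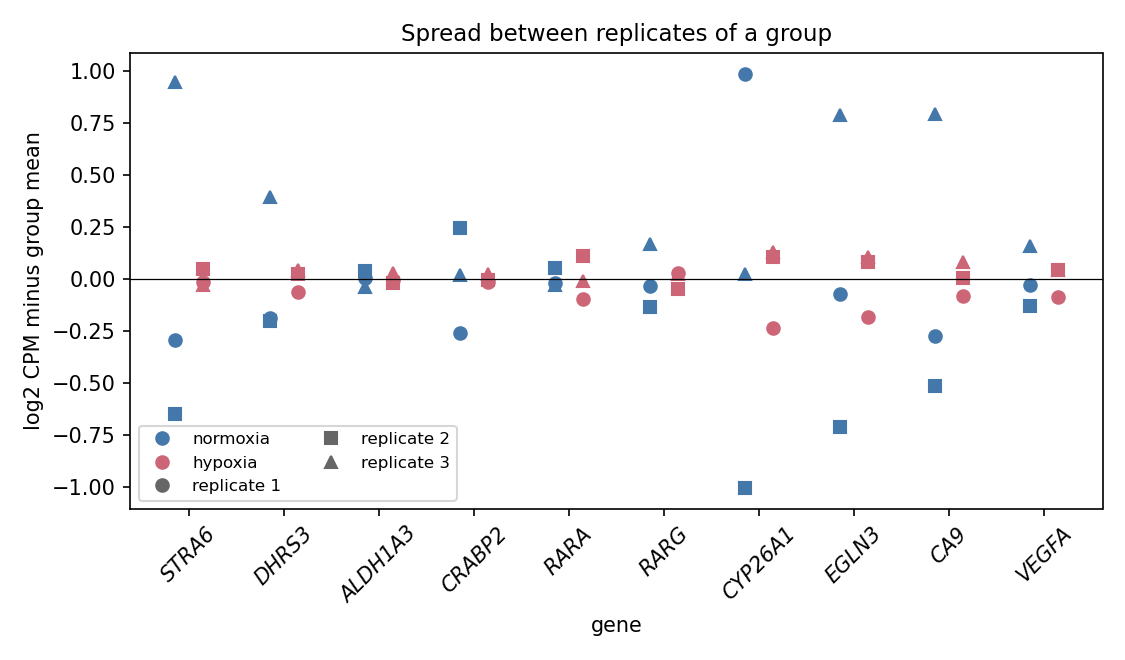
Deviation of each library from the mean of its own condition, in log2 CPM, for 7 of the 8 genes and for the hypoxia response genes EGLN3, CA9 and VEGFA. Normoxia replicate 3 (blue triangles) lies highest for STRA6, DHRS3, RARG, EGLN3, CA9 and VEGFA, and normoxia replicate 2 (blue squares) lowest for CYP26A1.

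In the hypoxia response list 15 of 15 genes rose, beside 39.2% of all genes tested, with a median log2-fold change of 2.71. This list was also chosen with earlier results known, so the count is no independent check of the labels. EGLN3 rose by 6.69 and NDRG1, a stress response gene, by 5.40, also on the log2 scale. The genes whose pattern over the 6 libraries was most like CYP26A1 were DEPP1, EGLN3 and LINC02940, at root mean square distances of 0.58, 0.74 and 0.89 between their centred log2 CPM values. With a smaller prior count of 0.5 in place of 2 the third was SEMA5B. For ALDH1A3 the nearest were CHEK1, SYNCRIP and NAE1, at 0.0088, 0.017 and 0.023. A likeness over 6 libraries in 2 conditions rests mostly on the difference between the conditions, and nothing is said here of shared control.

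Other genes of the pathway were taken from 5 lists by role. Of their 62 genes, 51 had a row, 40 were tested, 19 rose and 10 fell. At 72.5% of those tested this share was close to the 77.8% called among all genes, and the median log2-fold change was 0.19, so the wider pathway did not stand out by the number of its genes that changed. These lists were also written with earlier results known.

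Uptake, storage and binding of retinol gave 6 increases and 1 decrease among 7 genes tested. SCARB1, a scavenger receptor that takes up carotenoids, rose by 0.40 on the log2 scale (SE 0.051, adjusted p = 1.17e-06 in the edgeR quasi-likelihood fit with Benjamini-Hochberg adjustment, as for all adjusted p-values that follow), from 202 to 268 CPM. DGAT1, which can esterify retinol, rose by 0.37 (adjusted p = 0.000106). RBP5, RBP7 and BCO2, singled out after their values were seen, rose from means under 0.2 CPM. LRAT, the main retinol esterifying enzyme, fell by 0.89 (adjusted p = 7.67e-05) from 5.79 to 3.13 CPM, so the listed esterifying enzymes moved in opposite directions.

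Among the retinol and retinal oxidoreductases, 1 of 9 genes tested rose and 1 fell. SDR16C5, an epidermal retinol dehydrogenase chosen after its values were seen, rose by 1.33 (adjusted p = 0.00233) to 1.68 CPM, and RDH13 fell by 0.82 (adjusted p = 1.67e-06). RDH10, the retinol dehydrogenase needed for embryonic retinoic acid, had a log2-fold change of 0.12 (adjusted p = 0.281), with 16.4 CPM in hypoxia and 15.1 in normoxia. DHRS9 was too low to be tested.

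Of the other enzymes that make or break down retinoic acid, 2 of 5 tested rose and 3 fell. CYP2S1, a P450 that can oxidize retinoic acid, rose by 0.95 (adjusted p = 0.000486) from 2.10 to 4.06 CPM. ALDH8A1, a retinal dehydrogenase named after its values were seen, had 16, 21 and 12 counts in hypoxia and 2, 0 and 0 in normoxia (adjusted p = 0.000111). AOX1, an aldehyde oxidase, fell by 1.21 (adjusted p = 2.32e-05) and CYP1B1 by 0.36 (adjusted p = 0.00396). ALDH1A1, the related retinaldehyde dehydrogenase, had 9, 2 and 2 counts in hypoxia and 25, 13 and 11 in normoxia and fell by 1.92 (adjusted p = 0.00893), a call lost without hypoxia replicate 2 (adjusted p = 0.0553) or normoxia replicate 1 (adjusted p = 0.0547). Its log2-fold change was -3.06 without hypoxia replicate 1 and -1.51 without hypoxia replicate 2. ALDH1A2 was too low to be tested, with 1 count in the 6 libraries, and CYP26C1 had no row.

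The binding proteins and receptor partners gave 3 increases and 1 decrease among 4 tested. RXRA had 157, 159 and 161 CPM in hypoxia and 109, 108 and 120 in normoxia and rose by 0.50 (SE 0.055, adjusted p = 2.56e-07). RXRB had 46.4, 45.6 and 45.1 CPM in hypoxia and 32.1, 28.1 and 33.7 in normoxia and rose by 0.54 (SE 0.072, adjusted p = 2.19e-06). Both RXR partners were thus higher in every hypoxia library. FABP5, which carries retinoic acid to PPARD, fell by 1.30 (SE 0.088, adjusted p = 3.98e-10), from 36.2 to 14.7 CPM. PPARD, the nuclear receptor that FABP5 serves, rose by 1.63 (SE 0.071, adjusted p = 1.53e-12), from 35.1 to 109 CPM. FABP5 and CRABP2, the carriers to the different receptors, therefore differed in opposite directions. CRABP1 and RXRG were too low to be tested.

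The corepressors and coactivators held 15 tested genes, of which 7 rose and 4 fell, with a median of 0.093. The acetyltransferase gene KAT2B rose by 0.73 (adjusted p = 0.000255). The corepressor gene NCOR1 had a log2-fold change of -0.06 (adjusted p = 0.283). MED1, a subunit of the Mediator complex, fell by 0.64 (adjusted p = 7.59e-09) and the methyltransferase CARM1 by 0.53 (adjusted p = 6.42e-08).

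**Figure D5:**
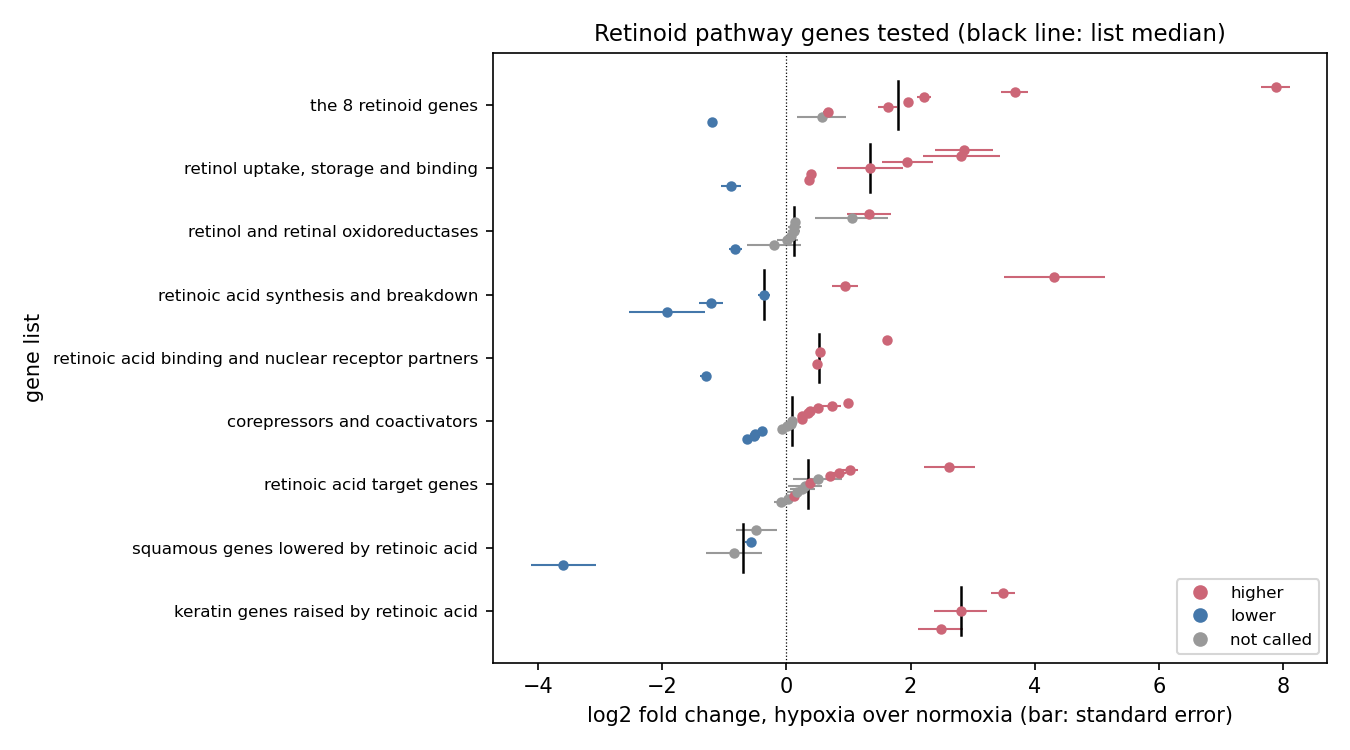
Log2-fold change with its standard error for the 8 genes and for each tested gene of the pathway, target and squamous lists, colored by its call, with the list median as a black line. CYP26A1 lies alone near 8, and the corepressor and coactivator list is spread on both sides of 0; the fitted values of genes with few normoxia counts, such as ALDH8A1, depend on the prior count.

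Genes that retinoic acid is known to induce in other cells were listed apart from the set. Of 19 listed, 12 were tested, 6 rose and 0 fell at an adjusted p under 0.05 by edgeR, while 39.2% of all genes tested were called higher and 38.5% lower. In either direction 50% of the list was called, under the 77.8% of all genes. The number that fell was also 0 at an unadjusted p under 0.05 and by DESeq2, for the same genes and libraries. This list too was written with earlier results known, so nothing is read from these counts. HOXA5 rose by 1.02 (SE 0.13, adjusted p = 2.30e-06), from 5.39 to 10.9 CPM, and HOXA4 by 0.85 (SE 0.12, adjusted p = 3.52e-06), from 7.05 to 12.7 CPM. TGM2, a transglutaminase induced by retinoic acid in many cells, had 408, 366 and 383 CPM in hypoxia and 379, 392 and 361 in normoxia, groups that overlapped, and a log2-fold change of 0.03 (adjusted p = 0.603). The list median was 0.34, and its largest increase was 2.63 for PLAAT4 (adjusted p = 1.74e-05), named after its values were seen, with 37, 54 and 42 counts in hypoxia and 6, 5 and 9 in normoxia.

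Retinoic acid lowers keratinization genes and raises simple and mucosal keratins in squamous cells in culture, and both groups were counted. Their lists were likewise written with earlier results known. Of 4 tested genes of the first group, 2 fell and 0 rose by edgeR, and 0 rose at an unadjusted p under 0.05 or by DESeq2. KRT10, a keratin of differentiated epidermis, fell by 0.57 (SE 0.092, adjusted p = 2.26e-05), and SPRR1B, a cornified envelope gene, fell from 2.18 to 0.177 CPM (adjusted p = 8.38e-06). IVL and TGM1 did not pass the test. All 3 tested genes of the second group rose. Together 5 of 7 were called (71.4%), near the 77.8% called among all genes tested, with 39.2% higher and 38.5% lower. KRT15, a basal keratin, had 6765, 9714 and 8120 counts in hypoxia and 622, 419 and 1012 in normoxia and rose by 3.49 (SE 0.20, adjusted p = 3.32e-11). KRT19 rose from 0.551 to 3.01 CPM (adjusted p = 6.80e-06) and KRT13 from 0.173 to 1.26 CPM (adjusted p = 1.31e-05). SPRR1B, KRT13 and KRT19 were named after their values were seen. With a filter of at least 10 counts in every library only 3 genes of the pair of lists could be tested, and 2 were called in place of 5.

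The labelled cell type was checked against epithelial markers. CDH1 (E-cadherin) had a mean of 479 CPM in hypoxia and 188 in normoxia, EPCAM 249 and 317, KRT5 111 and 126, and TP63 68.3 and 62.7. KRT14, the usual partner of KRT5, had 1 count over the 6 libraries. Markers of fibroblasts, endothelium and blood moved with the condition, and 3 of the 4 tested rose (CD14, COL1A1 and CDH5). Their summed level over 8 genes was 28.6, 24.9 and 23.9 CPM in hypoxia and 5.11, 4.02 and 7.94 CPM in normoxia. COL1A1 was the most abundant, at 18.0 against 3.76 CPM, whereas PTPRC and CD3E had means of 0.0205 and 0.00896 CPM in hypoxia and 0 in normoxia. HBB had no row. The part of other cells in the retinoid gene differences was not tested. In bulk RNA, a change in the share of cells that express a gene and a change in RNA per cell cannot be told apart.

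Reads of overlapping genes bear on 4 genes of the set, since no source used here says whether the counting used strand. CYP26A1 shares 750 exonic bases on the same strand with AL358613.3, which has no row, so their reads cannot be told apart. RARA shares 556 exonic bases with RARA-AS1 on the opposite strand, which had 2.48 CPM in hypoxia and 0.493 in normoxia, against 106 and 27.3 for RARA, and 291 with AC080112.3, also on the opposite strand, which has no row. STRA6 shares 540 exonic bases with CCDC33 on the opposite strand, which had 6.50 and 0.278 CPM against 101 and 7.97 for STRA6. ALDH1A3 shares 63 exonic bases on the same strand with AC015712.5 and 1585 with the antisense gene AC015712.2, neither of which has a row, so their reads cannot be told apart.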

How the data were processed

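RNA was extracted with a column kit and made into libraries with a SMARTER mRNA-Seq kit, per the labels. The authors deposited raw counts per gene, whole numbers with no normalization, and the authors' FPKM for the same genes. The aligner, annotation and strand setting are not given in the sources used here; the submitters' processing notes name the mouse builds GRCm38 and mm10, while the table holds human symbols, 763 of them starting with LINC. The 9 genes and all gene lists were chosen with earlier results of these data known. Some genes of these lists are counted but not reported by name here.

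Counts were filtered with filterByExpr, scaled by TMM and fitted over all 6 libraries with edgeR 4.0.16 in R 4.3.3 (glmQLFit and glmQLFTest), with hypoxia against normoxia as the term and Benjamini-Hochberg adjustment over 14255 genes. The biological coefficient of variation was 0.0685. CPM were computed from the counts, and log2 CPM with a prior count of 2. Replicates of a group were compared by chi-square, which per gene was between 5.11 and 11.5, above sampling noise in every pair, and each library was kept as a replicate. On simulated counts for this comparison the edgeR step recovered 185 of 195 changed genes among 14065, with 3.14% false calls. In the libraries themselves 77.8% of genes tested were called. The simulation did not cover a change of that extent, so its false call rate may not hold for them. At these depths, 3 counts, the limit a count of 0 allows, equal 0.0805 to 0.101 CPM, which covers counting error only.

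Named genes were the 9 genes, 13 partner, carrier and enzyme genes chosen whatever their values, and in each list the 2 largest increases and 2 largest decreases whose groups did not overlap, with an adjusted p under 0.05 and a log2 CPM averaging 1 or more. For CYP26A1 and the gene of the set with the largest decrease, the 3 nearest tested genes by root mean square distance of centred log2 CPM were also named. NCOR1, TGM2, IVL and TGM1 were added to these after their values were seen. Lists covered 5 pathway roles, retinoic acid targets, squamous and keratin genes, hypoxia response, epithelial markers, and markers of other cells. KEGG retinol metabolism and the GO term for cellular response to retinoic acid were added after the values were seen. Alternatives were DESeq2 1.42.0, DESeq2 size factors in edgeR, no filter, a minimum of 10 counts per library, a block for the replicate number, and each library left out. Promoter windows came from RefSeq (GRCh38.p14) and positions from GENCODE v29 (GRCh38).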

Additional observations from a re-analysis of the deposited data

How the results depend on the processing

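The log2-fold changes of the 8 retinoid genes, chosen with this contrast known, kept their sign in each fit they entered, in 48 values with 1 library left out and 39 under other alternatives. With 1 library left out, the number of differentially expressed genes ran from 10669 to 11390, that of the pathway lists from 28 to 29, that of the target list from 5 to 6 and that of the squamous and keratin lists from 5 to 6. Under the other alternatives all genes ran from 9967 to 11920 and the pathway lists from 27 to 29. With a minimum of 10 counts per library the squamous and keratin lists gave 2 of 3 tested, since fewer genes were tested, and KRT5 lost its call (adjusted p = 0.127), as it did without hypoxia replicate 2 (adjusted p = 0.0624). Without a filter the median log2-fold change of all genes was 0.20 in place of 0.023. Depth limits CYP26A1 in normoxia, CYP26B1, ALDH1A1 and ALDH8A1.

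No effect shared by replicate number was seen: deviations of same-numbered libraries correlated at 0.018, -0.069 and 0.0012. Differently numbered libraries ran from -0.069 to 0.066. These correlations cannot show whether the cultures were paired. With the replicate number as a block, 10875 genes were called.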

Other observations

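A wider list of 57 genes annotated by GO to the cellular response to retinoic acid, other than the 9 genes, was examined after the values were seen. Of these, 41 were tested, 20 rose and 13 fell by edgeR's quasi-likelihood test, beside 39.2% and 38.5% of all genes. PTK6, a non-receptor tyrosine kinase of differentiating epithelium, had 82.4, 85.4 and 82.9 CPM in hypoxia and 19.9, 19.9 and 23.0 in normoxia and rose by 2.00 on the log2 scale (SE 0.068, adjusted p = 9.26e-14). TNF, the inflammatory cytokine, had 5.57, 7.74 and 8.41 CPM in hypoxia and 22.0, 22.4 and 18.1 in normoxia and fell by 1.52 (SE 0.13, adjusted p = 1.35e-08). ZNF35, a zinc finger gene, fell by 1.80 (SE 0.14, adjusted p = 2.35e-09), from 16.8 to 4.85 CPM. With COL1A1, a fibroblast marker already given, these were the 2 largest increases and 2 largest decreases by the rule for named genes.

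The KEGG list of retinol metabolism, without the 9 genes, held 38 genes, of which 18 were tested, 5 rose and 5 fell, so that 55.6% were called, under the 77.8% of all genes tested. CYP1A1, a P450 best known as a target of the aryl hydrocarbon receptor, fell by 1.43 (SE 0.086, adjusted p = 8.35e-11 by edgeR), with 39.9, 51.1 and 44.4 CPM in hypoxia and 114, 137 and 113 in normoxia. Together with CYP1B1, both CYP1 genes named here were lower in hypoxia.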
